A study of Mus musculus with 16 samples.

Results

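Deubiquitinases, ubiquitin-conjugating enzymes and proteasome subunits were followed through maps of acetylated RNA from the livers of db/db and lean mice. A gene belonged to the set if its deposited name began with Usp and a digit, Otud, Uchl, Ube2, or Psm and a letter from a to g, and if it had a peak in any list. This gave 90 of the 8602 genes with a peak, namely 35 Usp, 6 Otud, 2 Uchl, 22 Ube2 and 25 Psm genes. Some Usp genes, such as Usp39 and Usp6nl, carry the name but are not deubiquitinases, and they stay in the Usp counts below. Beyond having a peak, the choice used names and no measured value, but it was made with earlier results of these data known. Acetylated RNA was immunoprecipitated with an antibody to N4-acetylcytidine (ac4C), a modified cytidine made by the enzyme NAT10, and enriched stretches of the transcriptome were called as peaks. The 16 samples were 4 immunoprecipitates and 4 inputs from db/db mice, and 4 immunoprecipitates and 4 inputs from lean mice. All came from male liver. The strain label was db/db for the first group and C57BL/6 for the lean group, and neither age nor treatment is given in the sources used here. Mice of the db/db genotype have no functional leptin receptor and develop obesity and diabetes. Whether the lean mice were littermates, and whether each sample was a separate animal, is not given in the labels either, so the p-values below measure the spread between these lists, which may be technical.

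Ubiquitin is a small protein that is joined to other proteins as a label. An activating enzyme (E1) hands it to a conjugating enzyme (E2, the Ube2 genes), which places it on the target with the help of a ligase, and deubiquitinases of the Usp, Otud and Uchl families remove it again. Many labelled proteins are then broken down by the proteasome, in which a regulatory particle (mostly Psmc and Psmd genes) unfolds the protein and a core particle (Psma and Psmb genes) cuts it. In the liver this system turns over metabolic enzymes, transport proteins and damaged proteins.

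Several regions that were called unequally in the groups, and several called in every list, lay over annotated transcription starts. The sequences around 11 such starts are shown because the results return to them. Each runs 5′ to 3′ on the plus strand from RefSeq assembly GRCm38.p6, with 30 bases before the start in lower case and the first 30 transcribed bases in capitals. At 3 starts the covering region was called in 3 or 4 db/db lists and in 0 or 1 lean list.
Psme1 (chr14:55578464-55578523): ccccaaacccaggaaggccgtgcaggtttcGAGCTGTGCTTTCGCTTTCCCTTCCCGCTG
Usp2 (chr9:44084890-44084949): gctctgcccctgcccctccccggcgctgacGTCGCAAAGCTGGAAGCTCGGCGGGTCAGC
Usp30 (chr5:114100303-114100362): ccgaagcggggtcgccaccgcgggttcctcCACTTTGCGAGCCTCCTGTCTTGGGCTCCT
At 6 starts it was called in 0 or 1 db/db list and in 3 or 4 lean lists.
Psmd14 (chr2:61711664-61711723): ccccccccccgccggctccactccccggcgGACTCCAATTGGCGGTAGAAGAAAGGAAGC
Ube2g1 (chr11:72607231-72607290): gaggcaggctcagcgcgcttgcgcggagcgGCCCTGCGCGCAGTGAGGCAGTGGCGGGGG
Usp4 (chr9:108347801-108347860): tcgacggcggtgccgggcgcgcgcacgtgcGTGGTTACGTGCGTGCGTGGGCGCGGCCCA
Usp8 (chr2:126707298-126707357): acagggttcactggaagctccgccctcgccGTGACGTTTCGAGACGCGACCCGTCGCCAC
Usp16 (chr16:87454955-87455014): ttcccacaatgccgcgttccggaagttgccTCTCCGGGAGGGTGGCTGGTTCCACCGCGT
Psmg4 (chr13:34162934-34162993): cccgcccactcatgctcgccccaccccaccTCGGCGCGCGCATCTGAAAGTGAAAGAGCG
At the last pair it was called in all 8 lists.
Psmc1 (chr12:100110172-100110231): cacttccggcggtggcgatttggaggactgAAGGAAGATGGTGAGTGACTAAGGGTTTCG
Ube2k (chr5:65537215-65537274): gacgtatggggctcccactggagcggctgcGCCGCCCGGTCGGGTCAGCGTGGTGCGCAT

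Each peak in the lists carries the authors' fold enrichment of immunoprecipitate over background and a score. These are values of that peak in that list, so they describe and rank peaks within a list. Between lists, the comparison was whether a gene or region had a peak at all. Filters on fold or score, used below as alternatives, apply the same cutoff to values that are not comparable between lists. The set held 857 of 68356 peaks (1.25%), with folds between 2.01 and 22.72 and a median of 4.1, beside 4.07 over all peaks. The authors' false discovery rate was 100% for 854 of the 857 peaks and no lower than 74.79% for the rest, so single peaks are weakly backed. Lists of db/db mice (named db1, db2, db4 and db5) held 8212 to 9754 peaks in all, and lists of lean mice (named C5 to C8) held 7583 to 8503. A gene without a peak is one for which the caller reported none. Sequencing depth and transcript level of each liver were not measured here, and in bulk liver fewer cells of a type and less RNA per cell cannot be told apart.

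The number of ubiquitin and proteasome genes with a peak overlapped between db/db and lean livers. They numbered 49, 64, 62 and 56 genes with a peak in db1, db2, db4 and db5, against 63, 58, 59 and 55 in C5 to C8. The groups overlapped, with means of 57.75 ± 6.75 genes in db/db lists and 58.75 ± 3.30 in lean lists (SD, n = 4 each), a difference of -1 gene. Without the db1 list the difference was 1.92 genes, and without the C5 list it was 0.417. Over all genes the same means were 4670.75 in db/db lists and 4355 in lean lists. As a share of all peaks, those in the set took 1.10%, 1.31%, 1.15% and 1.13% in the db/db lists, against 1.36%, 1.33%, 1.26% and 1.42% in the lean lists. The ranges of this share overlapped, since db2 lay above C7. Of the 90 genes, 23 had a peak in more db/db lists (25.6%, beside 38.2% of all genes), 29 in more lean lists (32.2%, beside 30.1%) and 38 in as many of each (42.2%, beside 31.7%).

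These transcripts were often called in every liver. A peak in all 8 lists was found for 25 of the 90 genes (27.8%), where 19.8% of all genes had one. A peak in a single list was found for 9 of them (10%), where 23.0% of all genes were called once. With a fold of at least 4 required, 15 genes of the set were left in all 8 lists, and with a score of 50 or more 11 were. The shares of all genes left under these filters are not given here. The median gene of the set was called in 6 lists, and the median of all genes in 4.

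**Figure D1:**
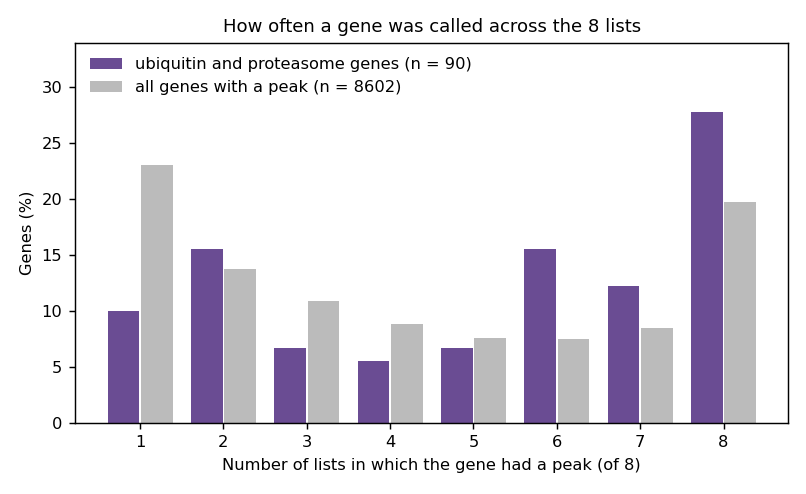
Share of genes (y axis, %) by the number of lists in which the gene had a peak (x axis, 1 to 8), for the 90 ubiquitin and proteasome genes (purple bars) and all 8602 genes with a peak (grey bars). The purple bar is the taller one at 8 lists (27.8% against 19.8%) and the shorter one at 1 list (10% against 23.0%).

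Among the genes called in all 8 lists, Ube2k stood highest by the mean percentile of its best fold within each list. Ube2k encodes a conjugating enzyme that builds ubiquitin chains, and its best fold was 15.73, 22.72, 8.22 and 10.93 in db1, db2, db4 and db5, against 15.65, 11.68, 16.42 and 16.63 in C5 to C8. Its peak lay over the start shown above (region chr5:65537233-65537546), and the fold of 22.72 in db2 was the highest of the whole set. Psmc1, an ATPase at the base of the regulatory particle, followed with 8.87, 8.23, 9.09 and 8.29 in the db/db lists and 18.12, 6.83, 14.12 and 10.51 in the lean lists. A narrow region over its start (chr12:100110186-100110211) and a region further inside the gene (chr12:100113056-100113152) were both called in all 8 lists. Every one of these folds lay above the median fold of its list, which was between 4.02 and 4.18.

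The next places went to Usp34 and Usp47, large ubiquitin-specific proteases. Usp34 carried the highest score of the set, 1979.97 in C6, in a region inside the gene (chr11:23363791-23364512) with folds of 8.75, 9.46, 9.68 and 10.08 in the db/db lists and 7.14, 11.1, 8.32 and 8.38 in the lean lists. Usp47, which acts in DNA repair, reached the highest fold of the Usp family, 16.48 in C7, over its start (chr7:112023506-112023746). That region also overlaps the annotated gene Gm3960, and without strand in the lists these transcripts cannot be told apart there. The other genes among the first 10 were Psmd1 and Psmd7 of the regulatory particle, the conjugating enzymes Ube2e2, Ube2e3 and Ube2q2, and Usp25. Their best folds lay between 3.65 (Ube2e2 in C6) and 11.94 (Ube2e2 in db5). In the smaller families the highest folds were 9.41 for Otud6b in C5 and 7.15 for Uchl3 in C7.

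At the other end, 9 genes had a peak in 1 list. They were Otud1, Usp5, Usp38, Usp54 and Ube2w in a db/db list, and Psmc5, Psmd13, Ube2l6 and Ube2m in a lean list. Ube2l6 and Ube2m differ from most Ube2 enzymes in that they carry the ubiquitin-like proteins ISG15 and NEDD8. Of the 156 protein-coding RefSeq genes whose symbol fits the naming rule, 66 had no row in the lists used here. The share of all protein-coding RefSeq genes without a row is not given here, so this count is a description.

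The cover of the proteasome was uneven between its parts. None of the 11 Psmb genes, which encode the cutting ring of the core and its immune-type replacements, had a row in the 8 lists. Of the 8 Psma genes, which encode the outer rings, 3 had a peak. Genes named Psmd and Psmc were covered more often, with 10 of 14 and 5 of 7. Of the 10, Psmd5 and Psmd9 are assembly chaperones, and 8 are subunits of the regulatory particle. Psmc3ip, counted among the 7, is no proteasome subunit. Psma4 was the core gene called in all 8 lists, in a region near the 3′ end of the gene (chr9:54957635-54958030) with folds of 3.92 to 4.85 in db/db lists and 5.92 to 10.3 in lean lists. Its scores ran the other way, at 122.64, 331.58, 243.77 and 286.18 in db/db lists and 102.79, 40.38, 28.35 and 19.58 in lean lists, and neither value is comparable between lists. Psma5 was called in 1 db/db and 1 lean list, and Psma3 in 2 db/db and 4 lean lists. Whether this pattern follows transcript level or length was not tested. No share of all protein-coding RefSeq genes with a row is given here to read these small counts against.

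By family, the counts per list overlapped between the groups for Usp, Ube2 and Psm genes. Usp genes with a peak numbered 21, 26, 28 and 21 in the db/db lists, against 22, 16, 23 and 23 in the lean lists (24 ± 3.56 and 21 ± 3.37, SD, n = 4 each). For Ube2 genes the counts were 13, 17, 10 and 14 in db/db lists and 17, 18, 16 and 11 in lean lists (13.5 ± 2.89 and 15.5 ± 3.11). Both differences turned round when a score of 50 or more was required, where they were -1 gene for Usp and 0.25 for Ube2. Psm genes numbered 12, 14, 18 and 16 in db/db lists, against 19, 18, 14 and 15 in lean lists (15 ± 2.58 and 16.5 ± 2.38). The Otud family had 2 to 5 genes per db/db list and 3 to 4 per lean list. Uchl3 and Uchl5, of which Uchl5 binds the proteasome, were each called in 3 db/db and 4 lean lists.

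**Figure D2:**
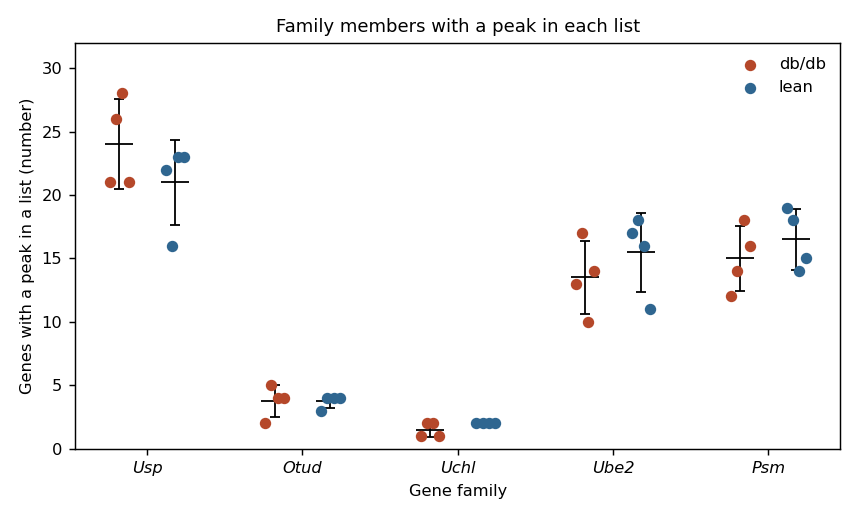
Number of genes with a peak (y axis) in each list for the 5 families (x axis), with db/db lists in red to the left of lean lists in blue; points are single lists, the long bar is the mean and the error bar 1 SD (n = 4). The points of the groups overlap in Usp, Ube2 and Psm, where C6 is the lowest Usp point at 16 genes.

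The genes were also sorted into 11 classes by what they do. The proteasome activators and the inhibitor (Psme1, Psme3, Psme4 and Psmf1) were called 3, 3, 4 and 3 at a time in the db/db lists, against 1, 2, 2 and 2 in the lean lists. With a fold of at least 4 required the counts overlapped, at 2, 3, 3 and 3 in the db/db lists and 1, 2, 2 and 2 in the lean lists, and with a score of 50 or more they were 2, 2, 3 and 2 against 1, 2, 2 and 2. Of these 4 genes, Psme4 was called in all 8 lists, and the gap came from Psme1, Psme3 and Psmf1. The ATPases of the base numbered 3 in every db/db list and 2 to 4 in lean lists. Other subunits of the regulatory particle numbered 3, 4, 5 and 5 in db/db lists and 7, 6, 5 and 5 in lean lists. The assembly chaperones, which help put the proteasome together and leave it afterwards (Psmg1, Psmg2, Psmg4, Psmd5 and Psmd9), numbered 2, 2, 4 and 3 in db/db lists and 4, 5, 2 and 4 in lean lists. Such counts over a few genes carry no test, and no share over other gene groups was computed to read them against.

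Which single genes were called in 1 group and not the other was asked with a two-sided Fisher's exact test on lists with and without a peak, adjusted by Benjamini-Hochberg over all 8602 genes. With 4 lists against 4 its smallest p is 0.0286, and no gene reached an adjusted p of 0.05 (0 of 8602, or 0%). After adjustment a gene could pass only if most of the genes tested stood at that smallest p. The adjusted test could therefore hardly call any gene, and its result does not show that the groups are alike. At an unadjusted Fisher's exact p of 0.0286 stood 139 genes (1.62%), and 1 of them belonged to the set (1.11% of its genes). Lists were next read by a count rule, which asked for a peak in 3 or 4 lists of 1 group and in 0 or 1 of the other. It took 6 of the 90 genes in the db/db direction (6.67%), close to the 7.16% of all genes, and 3 in the lean direction (3.33%), below the 5.03% of all genes. These counts move with single lists, and partly by construction. Without 1 list of its own group the rule asks for all 3 that remain, so the count can fall or stay. Without 1 list of the other group it still allows a peak in 1 of the 3 that remain, so the count can rise or stay. In the db/db direction they were 2, 3 and 2 genes without db2, db4 and db5. In the lean direction they were 5, 10, 8 and 7 genes without db1, db2, db4 and db5, and 1 gene without C5, C6 or C7. With a fold of at least 4 required, the rule took 3 genes in the db/db direction and 7 in the lean direction, and with a score of 50 or more it took 3 and 5. The shares of all genes under these filters are not given here, so the filtered counts have no background beside them. A difference of at least 2 lists was found in 24 of the 90 genes (26.7%), beside 24.5% of all genes, and 12 of the 24 lay in each direction.

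Psmd14 was the gene called in 0 db/db and 4 lean lists (Fisher's exact p = 0.0286, Benjamini-Hochberg adjusted p = 1). It encodes the deubiquitinase of the regulatory particle, which cuts ubiquitin chains off proteins as they enter the core. No db/db list had a peak anywhere in the gene, while the peak over its start (chr2:61711694-61711873) had folds of 5.66, 3.59, 5.14 and 2.79 in C5 to C8. With a fold of at least 4 required it was left in 2 lean lists, and with a score of 50 or more in 3. Near it in function stand Usp14 and Uchl5, the other deubiquitinases that bind the proteasome. Usp14 went the other way, with folds of 3.39, 3.88 and 5.79 in db2, db4 and db5 and a fold of 2.41 in C8 (Fisher's exact p = 0.486, adjusted p = 1).

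Toward db/db, Psme1 and Usp2 were called in 3 db/db and 0 lean lists (Fisher's exact p = 0.143, adjusted p = 1 for each). Psme1 encodes a subunit of an activator ring that caps the core particle and is induced by interferon gamma. Its peak spanned the start (chr14:55578360-55578613) with folds of 5.64, 6.55 and 5.85 in db2, db4 and db5, and db1 had none. Usp2, a deubiquitinase whose transcript cycles with the circadian clock in liver, had best folds of 5.25, 6.04 and 3.73 in the same 3 lists. Its region over a start (chr9:44084920-44085335) overlaps the annotated gene Gm39325, so the source of the signal is uncertain there.

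Usp30 and Psmc4 were called in 4 db/db lists and 1 lean list (Fisher's exact p = 0.143, adjusted p = 1 for each). Usp30 encodes a deubiquitinase of the outer mitochondrial membrane that holds back the removal of damaged mitochondria. The region at its start (chr5:114100333-114100515) had folds of 6.47, 6.64, 3.73 and 3.13 in db1, db2, db4 and db5, against 3.48 in C8, where the peak began just behind the start. A region close behind it in the gene (chr5:114102383-114102492) was called in 3 of those db/db lists and in C8. Psmc4, an ATPase of the base, had weaker peaks, with best folds of 3.64, 3.20, 2.76 and 2.87 in the db/db lists and 3.88 in C6. None of them reached a fold of 4 or a score of 50. Otud3, a deubiquitinase of the OTU class, was called in 3 db/db lists with folds of 5.45, 7.18 and 3.62 (db1, db2 and db5), and in C7 with 4.34.

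The remaining genes with a difference toward db/db were Psmd5, Ube2v1 and Usp1 (4 db/db and 2 lean lists each) and Psmd11, Psmf1 and Usp49 (2 and 0 each). Psmd5, an assembly chaperone of the base, had high folds in the lists that called it, 9.54, 7.23, 4.25 and 6.95 in db/db lists and 7.95 and 8.17 in C5 and C6. Ube2v1 is a variant without the catalytic cysteine that works beside an active conjugating enzyme, and its folds lay between 4.62 and 6.03 in the db/db lists and at 4.08 and 6.42 in C5 and C6, in a region that overlaps the annotated gene Gm31852. Usp1, which acts in DNA repair, had best folds of 2.94 to 5.55 in the db/db lists and of 4.28 and 3.46 in C6 and C7. Psmd11, a subunit of the regulatory particle, and Psmf1, an inhibitor of the core, had folds no higher than 2.59 and 3.22, and the peaks of Usp49 overlap the annotated gene Gm20517.

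Toward lean, 5 of the 12 genes were conjugating enzymes, a family with 22 of the 90 genes of the set. Except for Usp3, the others were Psm genes, Psmd14 among them. Ube2a and Ube2r2 were called in 1 db/db and 3 lean lists, Ube2g1 and Ube2z in 2 and 4, and Ube2d1 in 0 and 2. Ube2a, known for its part in the DNA damage response, had folds of 3.21 in db2, against 3.95, 6.33 and 5.59 in C5 to C7. Ube2z, which takes ubiquitin from the E1 enzyme Uba6, had best folds of 3.41 and 3.42 in db2 and db5, against 5.22, 6.73, 8.92 and 4.87 in C5 to C8, so that a filter on fold at 4 left 0 db/db and 4 lean lists. Ube2g1, which acts in the breakdown of proteins from the endoplasmic reticulum, had best folds of 5.24 and 2.74 in db2 and db5, against 8.42, 6.12, 5.28 and 4.42 in C5 to C8. Ube2r2, a partner of cullin ligases, did not stay apart under that filter, with 1 db/db and 1 lean list.

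Among proteasome genes, Psma3 and Psmd9 were called in 2 db/db and 4 lean lists, and Psmc6, Psmd12 and Psmg2 in 0 and 2. Psmd12 and Psmc6 belong to the regulatory particle, and Psmg2 and Psmd9 are assembly chaperones. The folds of Psmd12 were 4.39 and 2.98 in C5 and C6, and those of Psmc6 were 4.2 and 4 in C5 and C7. Psma3 had folds of 3.96 and 4.02 in db2 and db5, against 4.14, 3.57, 4 and 4.68 in C5 to C8, and the fold of 4 in C7 lay where the annotated gene 3110056K07Rik overlaps. Usp3, a histone deubiquitinase, was called in 2 db/db and 4 lean lists, but its db/db folds were 5.66 and 5.77 and its lean folds 3.19 to 3.74. With a fold of at least 4 asked for, Usp3 was called in 2 db/db and 0 lean lists, although folds are not comparable between lists.

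**Figure D3:**
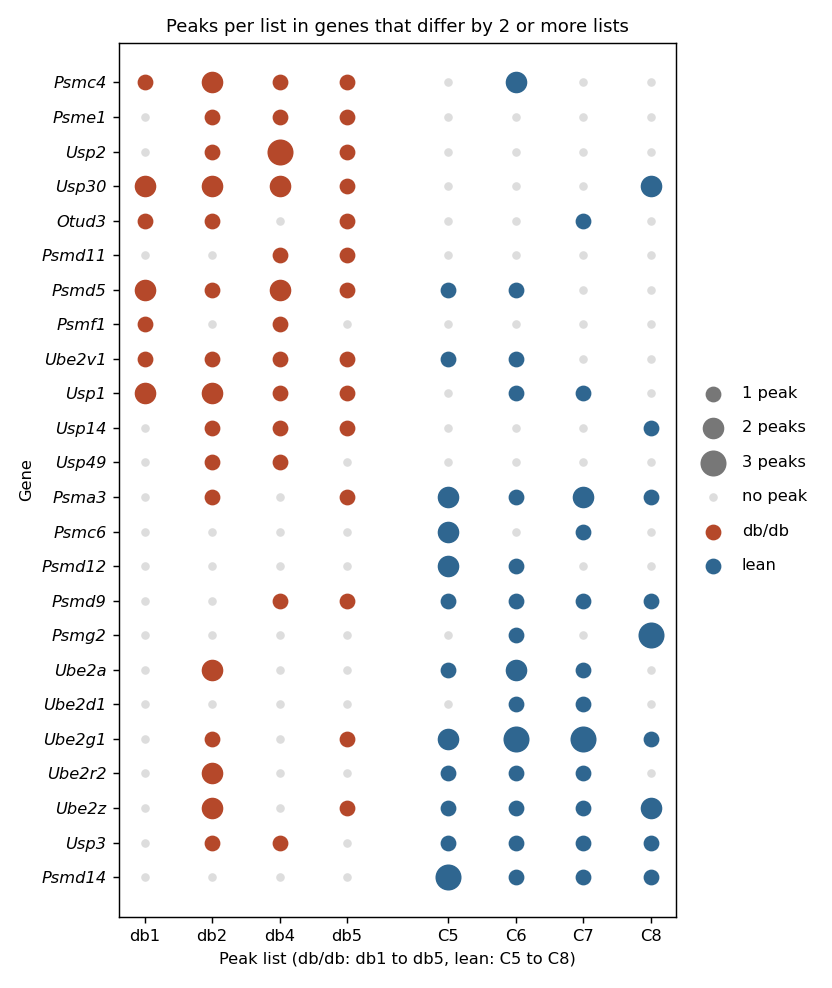
Peaks in each list (x axis, 4 db/db lists in red left of 4 lean lists in blue) for the 24 genes that differed by at least 2 lists (y axis); the dot size gives the number of peaks in the gene, and a small grey dot stands for none. Psmd14, at the bottom, has dots in the 4 lean lists and none in the db/db lists, and db1 has no dot in any of the 12 genes with more lean lists.

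Many of these genes carried several peaks, so overlapping peaks (1 bp or more) were joined into regions and read site by site. The set held 289 regions with a median width of 143 bp, beside 176 bp for all regions. None of the 25437 regions of all genes passed Fisher's exact test after Benjamini-Hochberg adjustment, which had the same limit as for genes. Of the 289, 21 were called in all 8 lists (7.27%, beside 6.21% of all regions), and 112 in 1 list (38.8%, beside 45.0%). By the count rule, 18 regions in 15 genes lay in the db/db direction (6.23%, beside 6.07% of all regions) and 19 regions in 16 genes in the lean direction (6.57%, beside 4.81%). Without db1, db2, db4 or db5 the first count was 8, 3, 6 or 10. The second count was 29 without db2, and 11, 6, 9 and 8 without C5, C6, C7 and C8. As for genes, the rule lets a count fall without a list of its own group and rise without 1 of the other. The lead also moved with the filter, at 4 regions in the db/db direction and 11 in the lean direction for folds of at least 4, 6 and 4 for scores of 50 or more, and 9 and 22 with equal numbers of peaks. For these filters no shares of all regions are given here. Of the 37 unequal regions found with all peaks, 24 lay in genes that had a peak in at least 3 lists of both groups. That count also has no share over all regions beside it. Only part of the 37 regions is described below.

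Of the 289 regions, 5 were called in all 4 lists of 1 group and in none of the other (Fisher's exact p = 0.0286, adjusted p = 1 for each). That share is close to the 1.56% of all regions that were called so. Toward db/db there were 2. Psmd7, a subunit of the regulatory particle, had a region at chr8:107582382-107582473 with folds of 4.70, 4.93, 3.99 and 4.31, and Ube2q1 had one at chr3:89779429-89779569 with folds of 4.44, 3.88, 4.23 and 3.98. As whole genes Psmd7 was called in all 8 lists, and Ube2q1 in 4 db/db and 3 lean lists. Toward lean there were 3. The region over the start of Psmd14 was given above, and the db/db peaks of Ube2g1 lay near its 3′ end, while its start (chr11:72607261-72607635) carried the lean folds of 8.42, 6.12, 5.28 and 4.42. In Ube2q2, which had 37 peaks in all, the region was chr9:55183102-55183186 with folds of 3.58, 5.49, 4.14 and 3.41.

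Usp4, Usp16 and Usp25 had unequal regions in both directions. Usp4, which acts on splicing factors and signalling proteins, had 4 such regions among its 5. Its start (chr9:108347831-108348018) was called in db1 with a fold of 4.23, against C5 to C8 with 2.90, 4.18, 3.73 and 3.17. A region within the gene (chr9:108379265-108379353) was called in db5 and in 4 lean lists, and another (chr9:108350910-108351037) in db4 and in 3 lean lists. Between them, a region at chr9:108362561-108362706 had folds of 3.77, 3.82 and 2.55 in db2, db4 and db5, and no lean list called it. Usp16, a histone deubiquitinase, had a region across its start (chr16:87454703-87455102) in 0 db/db and 3 lean lists, with folds of 3.59, 5.34 and 4.29. Further inside Usp16, a region at chr16:87466253-87466356 was called in 3 db/db lists and 1 lean list. Usp8, which sorts receptors at the endosome, had its start (chr2:126707328-126707487) called in 0 db/db and 3 lean lists, with folds of 6.73, 5.17 and 4.01, although the gene as a whole was called in all 8. A region reaching the start of Psmg4 (chr13:34162964-34163249) was called in db4 and in 3 lean lists, although the peaks of db4 and C8 began just inside the gene and those of C5 and C6 covered the start itself. In Ube2o, which is both a conjugating enzyme and a ligase, both unequal regions lay toward db/db.

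**Figure D4:**
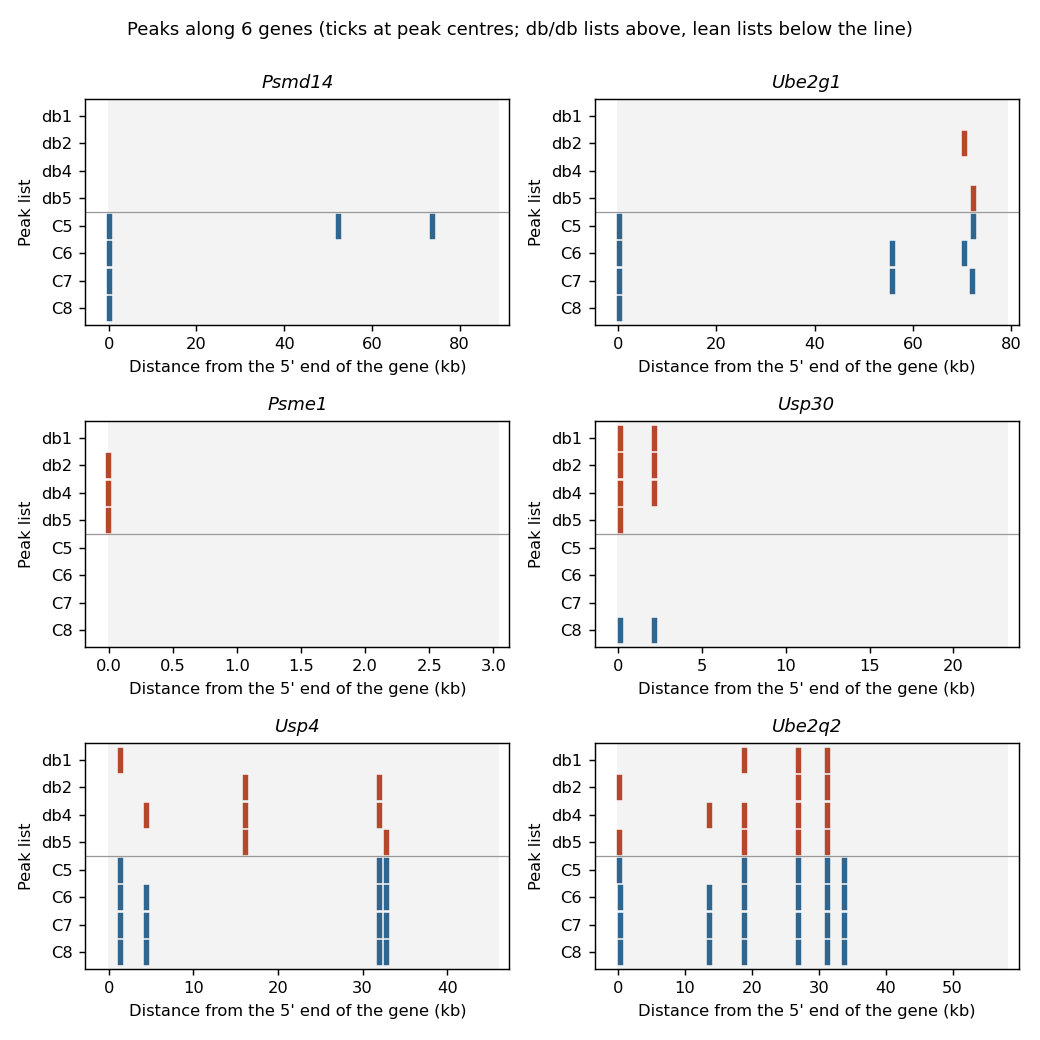
Peak centres (ticks) along 6 genes, by distance from the 5′ end of the gene (x axis, kb), with db/db lists in red above the line and lean lists in blue below it; grey marks the gene. Psmd14 and Ube2g1 have ticks at the 5′ end in the 4 lean lists alone, and Psme1 and Usp30 mainly in db/db lists. Usp4 has sites called mainly in db/db lists and others called mainly in lean lists. In Ube2q2 a site was called in the 4 lean lists alone, and no site was called in more db/db than lean lists.

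The peaks of these genes often covered an annotated start. Of the 71 genes of the set with a strand and start in the RefSeq table, 46 had a peak over a start (64.8%), where 2641 of all 6620 such genes did (39.9%). Per region the shares were 46 of 237 (19.4%) in the set and 13.4% over all genes. Among regions called in all 8 lists, 8 of 17 in the set covered a start (47.1%), beside 28.3% over all genes. Among regions called in 1 list, 6 of 95 in the set did (6.32%), with no share over all genes given here. In the db/db direction 3 of 13 regions of the set covered a start (23.1%, beside 14.03% over all genes), and in the lean direction 6 of 17 did (35.3%, beside 23.9%). These 9 starts are the ones printed above, in Psme1, Usp2 and Usp30 toward db/db and in Psmd14, Ube2g1, Usp4, Usp8, Usp16 and Psmg4 toward lean. Genes of the set were called in more lists than most genes, and how far that sets these shares was not tested.

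The first 50 transcribed bases were read at 79 starts of the set. At the 48 starts under a peak the median share of C was 28% and of G and C together 68%, and at the 31 other starts the medians were 30% and 66%. For all genes with a peak they were 30% and 70% at covered starts, and 28% and 64% at the others. Over all 32851 starts of the table they were 26% and 56%. The motif CNNCNNCNNC, cytidines spaced by pairs of any base as described for ac4C sites, was found in 19 of the 48 covered starts (39.6%), in 11 of the 31 others (35.5%) and in 22.1% of all starts. Its reverse complement GNNGNNGNNG was found in 66.7% of the covered starts, 51.6% of the others and 29.99% of all. At covered starts of all genes with a peak the shares were 35.7% and 54.0%, and at their other starts 27.8% and 41.0%. Windows holding 1 motif may also hold the other, and overlapping matches counted once per window. Of the printed starts, the share of C in the first 50 bases was 42% in Psme1, 32% in Usp2 and 36% in Usp30 on the db/db side, and between 22% in Psmd14 and 36% in Usp16 on the lean side.

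Other genes of the pathway were read from lists drawn up by function. Of 12 genes for E1 enzymes and ubiquitin itself, 7 had a peak, 6 of them in more db/db lists and 1 in more lean lists, where 38.2% and 30.1% of all genes lay in these directions. The counts in this paragraph, over a few genes each, are given as a description. No share of all RefSeq genes with a peak is given here beside them. Of all genes with a peak, 19.8% were called in all 8 lists. Sae1 and Uba2, the paired subunits of the E1 enzyme for SUMO, were called in 4 db/db lists each, against 1 and 2 lean lists. Of 16 other deubiquitinases 11 had a peak, 5 with more db/db lists, 3 with more lean lists and 3 equal. Stambp, a deubiquitinase of the endosome from the same metalloprotease class as Psmd14, was called in 4 db/db and 0 lean lists with folds of 3.41, 3.19, 4.35 and 3.49 (Fisher's exact p = 0.0286, Benjamini-Hochberg adjusted p = 1). Cyld, which trims ubiquitin chains in inflammatory signalling, was called in 1 db/db and 3 lean lists. Of 7 SUMO proteases 5 had a peak, and 3 of these were called in all 8 lists. Of 11 shuttle and segregase genes 8 had a peak, 4 of them in all 8 lists, with Ubqln4 in 3 db/db and 1 lean list and Ufd1l in 0 and 2. Of 7 genes for the assembly and control of the proteasome 5 had a peak, with Nfe2l1, a transcription factor for proteasome genes, in 0 db/db and 2 lean lists and Ddi2, the protease that activates it, in 2 and 0. No gene of these lists passed Fisher's exact test after Benjamini-Hochberg adjustment, which could hardly call any gene with so few lists.

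Marker genes of liver cell types were read the same way, which shows where peaks lay and not how much of each transcript there was. Of 12 hepatocyte markers 3 had a peak, in 0 to 2 genes per db/db list and 0 to 1 per lean list, and Alb, Apoa1 and Ttr had no row, so the tissue label could not be checked from peaks. Of 9 markers of T, B and natural killer cells 3 had a peak, in 0 to 2 genes per db/db list and 0 to 1 per lean list, with Cd3e and Cd79a without a row. Macrophage and Kupffer cell markers gave 1 to 2 genes per db/db list and 1 to 3 per lean list (5 of 9 had a peak). Single markers lay in both directions, with Marco in 4 db/db and 2 lean lists, Cd5l in 2 and 0 and Timd4 in 0 and 4. In the other marker lists Cd74 and Des were called in 3 db/db and 0 lean lists, Hnf4a in 3 and 1, Cps1 and Ptprc in 2 and 0, Lyve1 in 1 and 3 and Pdgfrb in 0 and 2. Endothelial and stellate cell markers gave 3 to 5 genes per list in either group (8 of 9 had a peak). These marker counts also have no share of all RefSeq genes beside them. The part of the cell mixture in the differences above was not tested.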

How the data were processed

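Acetylated RNA was measured by immunoprecipitation and sequencing in male mouse liver. Per the labels' protocols, total RNA was depleted of ribosomal RNA, broken into fragments and immunoprecipitated with an ac4C kit, and libraries kept strand. Per the submitters' processing notes, cutadapt 1.9.3, HISAT2 2.0.4 and mm10 were used. The caller was MACS, per the peak names in the file rows, and its version, threshold and control, and whether samples were pooled, are not given in the sources used here. The authors deposited for each peak a score, a fold enrichment (a linear ratio), a false discovery rate in percent and a length in bp. Library depth is unknown, so no counting interval is given, and inputs were not used here.

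Each list was assigned to a group by its name, with C read as the lean control, and not to numbered samples. Peak starts lay 1 below 2127 annotated gene starts and on 70, so they were read as 0-based and given 1-based. Genes were named by the deposited name and matched by gene ID to RefSeq (GRCm38.p6), 90 of 90. Peaks sharing at least 1 bp were merged into regions. Fisher's exact test (scipy 1.17.1, two-sided) with Benjamini-Hochberg adjustment over all genes or regions was checked on simulated data. Counts over the set carry no test. The genes and lists were chosen with earlier results of these data known. Genes named were those differing by at least 2 lists, and the first 10 of those called in all 8 lists by mean percentile of best fold. Also named were the highest fold of each family, some but not all genes of unequal regions, and up to 4 per pathway list. A few others are named to complete counts. Alternatives were a fold of at least 4, a score of at least 50, equal numbers of peaks, a 50 bp overlap, gene bounds in place of names, and leaving out each list. Neither an exon annotation nor a genome was used here, and the planned exon overlap and base content of regions were replaced by the bases at annotated starts.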

Additional observations from a re-analysis of the deposited data

Results flagged for a closer look

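Usp genes with a peak numbered 16 in the lean list C6, while the other lean lists had 22, 23 and 23, a gap past Dixon's 95% critical value for a group of 4. Otud genes with a peak numbered 3 in the lean list C5, with 4 in each of the other lean lists, where a single gene makes the gap. In all, 18 groups of 4 were read this way, and chance alone sets apart about 1 in 20.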

How the results depend on the processing

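No paired analysis was possible because the groups' list names share 1 number (db5 and C5), fewer than the 2 a block needs, and cannot be tied to numbered samples. Fisher's exact test with Benjamini-Hochberg adjustment called 0 genes and 0 regions with the fold filter, the score filter, equal numbers of peaks and each list left out, and was not run with the 50 bp overlap or gene bounds. In each setting it could call a gene or region only if most of them stood at its smallest p. These counts of 0 therefore say nothing about stability. The difference in genes of the set per list, db/db minus lean, was -1.75 with a fold of at least 4, -2.5 with a score of at least 50, -5 with equal numbers of peaks (7583 per list), and -3.08 to 1.92 when 1 list was left out, turning positive without db1 (1.92) and without C5 (0.417). Genes with a peak in 3 or 4 db/db lists and in 0 or 1 lean list numbered 6, and 3 with the fold filter, 3 with the score filter and 2 to 9 with 1 list left out. In the lean direction they numbered 3, and 7, 5 and 1 to 10. Regions in the db/db direction numbered 18, and 4 with the fold filter, 6 with the score filter, 9 with equal numbers of peaks and 3 to 23 with 1 list left out. In the lean direction they numbered 19, and 11 with the fold filter, 4 with the score filter and 6 to 29 with 1 list left out. Genes called in all 8 lists numbered 25, and 15 with the fold filter, 11 with the score filter and 25 to 30 with 1 list left out, where fewer lists are asked for. The score filter turned the family differences to -1 for Usp and 0.25 for Ube2, and Usp24 to -25 percentage points, and the fold filter turned Psmg4 and Usp3 to 50 percentage points each. Of the 24 genes that differed by at least 2 lists, 12 still did with the same sign under the fold filter, 7 under the score filter and 20 with equal numbers of peaks. Filters leave fewer peaks by construction. Leaving out a list can move a count of the rule in 1 direction only, as set out above for genes. Beyond that the cause of these shifts was not tested. Apart from Fisher's exact test, the values in this section are given for the set alone, without shares over all genes. Unknown depth limits every absence of a peak.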
